A study of Homo sapiens with 16 samples.

Results

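The 34 genes described here encode factors of nucleotide excision repair, of the Fanconi pathway of crosslink repair and of translesion synthesis. They were chosen by name, and each name matched 1 row among the 60658 genes of every table. Of the 34, 16 belong to excision repair, 12 to the Fanconi pathway and its crosslink nucleases, and 6 to translesion synthesis. RNA was sequenced from MDA-MB-231, a human line of triple-negative breast cancer that carries mutant p53. Cells lacking BMAL1 (BMAL1 -/-, called KO here) and wild-type cells (WT) were each studied under no drug (control), cisplatin, doxorubicin and tunicamycin, which gives 8 groups of 2 biological replicates, 16 libraries in all, from passages 10 to 15. Cisplatin crosslinks DNA, doxorubicin poisons topoisomerase II, and tunicamycin blocks protein glycosylation and was the study's comparator for stress of the endoplasmic reticulum. No label states the dose, the time of exposure, the number of KO clones or the edited part of the gene.

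Nucleotide excision repair removes bulky lesions, among them the intrastrand adducts of cisplatin: XPC or a stalled polymerase marks the lesion, the helicases of TFIIH open the helix, XPA verifies the site, and XPF-ERCC1 and XPG cut the strand on either side. The Fanconi core complex attaches ubiquitin to FANCD2 and FANCI at a crosslink, which brings in nucleases to unhook it. Translesion polymerases then copy across the damaged template. BMAL1 with CLOCK activates genes through E-box sequences, and in mouse liver Xpa follows a daily rhythm.

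Each group has a single value per gene, an FPKM (a fragment count scaled by transcript length and by the size of the library), so no spread between replicates can be shown. The tests are those of the authors' Cuffdiff comparisons of KO over WT, 1 for each treatment, and a gene is called here when its deposited Benjamini-Hochberg q is at most 0.05. Drug responses within a genotype were computed across tables that had been normalized separately, and have no test. Wherever 4 values are listed in a row they stand for control, cisplatin, doxorubicin and tunicamycin.

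ARNTL, which encodes BMAL1, had 0.889, 0.941, 0.474 and 2.24 FPKM in KO cells, against 5.67, 1.26, 1.31 and 3.25 FPKM in WT cells. In the authors' deposited tables it was lower in KO cells in control (Cuffdiff q = 0.000213) and doxorubicin (q = 0.00509), and was not called under cisplatin (q = 0.467) or tunicamycin (q = 0.081). Depth is unknown. The 5th percentile of the FPKM values above 0, which falls as depth grows, was lowest in WT doxorubicin cells at 0.0141 and highest in WT control cells at 0.0388. Transcripts of the mitochondrial genome made up 11.1% of summed FPKM in KO and 16.99% in WT cells under doxorubicin, and between 3.64% and 6.94% in the other 6 groups. VIM, at 2883 FPKM or more in every group, and KRT8 and KRT18 were abundant. With CD44, AXL and SPARC they make a list of 6 features of the line, all called in every table. Of the 6, 3, 3, 4 and 3 were higher in KO cells and 3, 3, 2 and 3 lower. Of 5 hormone receptor and luminal markers, PGR was listed at 0 throughout, and ESR1 was at most 0.196 FPKM. ERBB2 had 15.5, 18.5, 7.11 and 14.1 FPKM in KO cells, against 23.4, 25.5, 11.4 and 18.8 FPKM in WT cells, and was called lower in KO cells in all 4 tables. GATA3 was called higher in KO cells in 3 tables, with 3.82 FPKM in KO and 0.742 FPKM in WT cells in control, and FOXA1 was below 1 FPKM. The fibroblast marker DCN was listed at 0 in all 8 groups. Of the other 7 fibroblast markers, COL1A1 and PDGFRB were measurable and the rest lay at or near 0, with COL1A2 lower in KO cells than in WT cells under every treatment. The summed level of the list, carried by COL1A1 and PDGFRB, was higher in KO cells, at 12.6, 15.6, 3.92 and 9.97 FPKM, against 4.11, 9.07, 1.05 and 3.32 FPKM in WT cells. The part of depth, mitochondrial share and these markers in the results below was not tested.

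In KO over WT the repair genes moved in both directions. Without drug, 7 of the 34 rose and 11 fell in KO cells, together 52.9% of those tested, where 43.8% of all 12978 tested genes were called (22.7% higher and 21.1% lower). Under cisplatin 9 rose and 9 fell, again 52.9%, where 49.6% of 14253 genes were called (25.4% higher and 24.2% lower). Under doxorubicin 7 of the genes were not tested, and of the other 27, 4 rose and 11 fell, 55.6%, where 45.1% of 11856 genes were called (24.4% higher and 20.7% lower). Under tunicamycin 7 rose and 11 fell, 52.9%, where 49.3% of 13896 genes were called (27.2% higher and 22.1% lower). Taken by direction, 20.6%, 26.5%, 14.8% and 20.6% of the tested repair genes rose and 32.4%, 26.5%, 40.7% and 32.4% fell. The share that fell was above that of all genes in each table, most under doxorubicin, and the share that rose was below it except under cisplatin. With repair genes left out whose chromosomal neighbours were shifted by 0.3 or more, 5 of 24, 4 of 23, 3 of 17 and 6 of 24 fell. That is below the share of all genes except under tunicamycin. The median log2 ratio of KO over WT among the repair genes was -0.19, -0.00, -0.37 and -0.07, against 0.01, 0.02, 0.04 and 0.03 over all tested genes. A called difference of at least 2-fold was seen for 2, 3, 3 and 0 of the repair genes, where 11.7%, 10.3%, 12.6% and 10.2% of all tested genes had one.

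**Figure D1:**
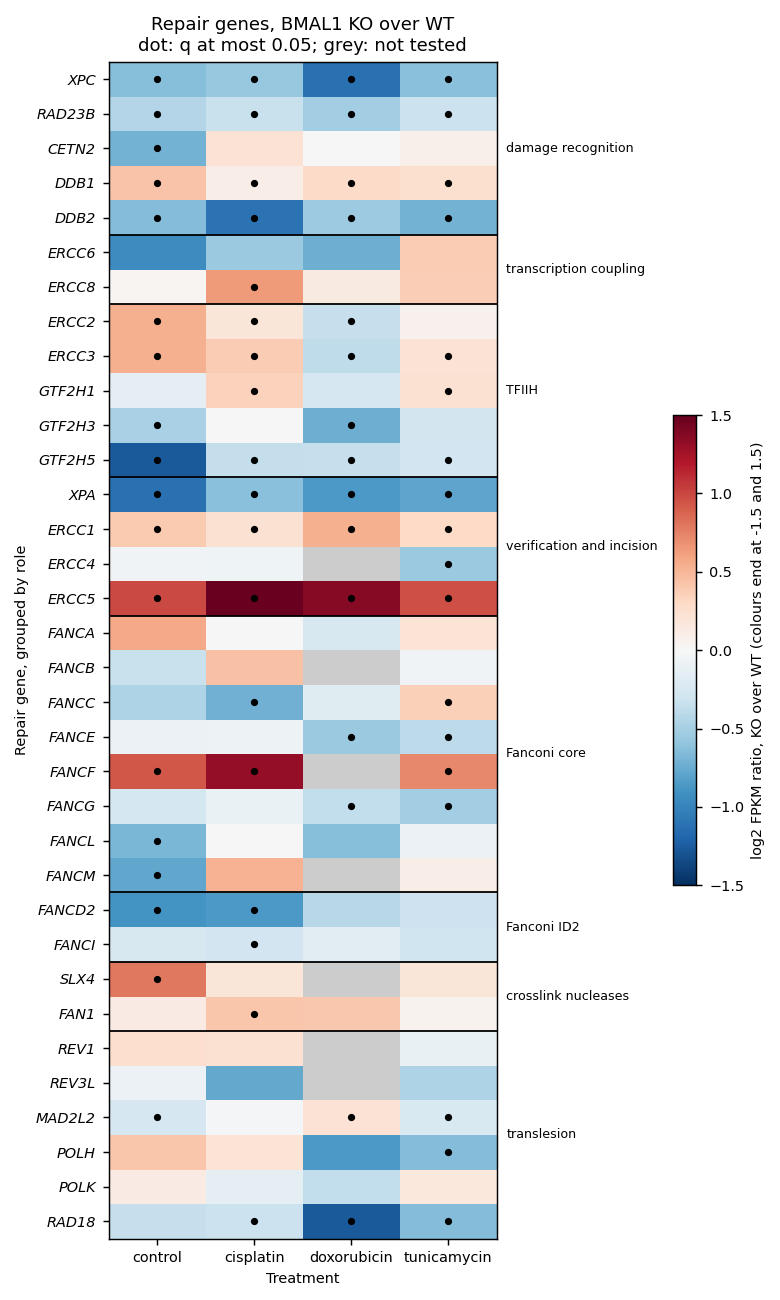
Log2 FPKM ratio of KO over WT for the 34 repair genes (rows, grouped by role) in the 4 treatments (columns), as the authors' deposited tables give it. Red is higher in KO cells, blue lower, grey not tested, and a dot marks q of at most 0.05; ERCC5 is red and XPA blue across all 4 columns.

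Of the 27 repair genes tested in all 4 tables, 3 were higher in KO cells every time (DDB1, ERCC1 and ERCC5) and 5 were lower every time (XPC, RAD23B, DDB2, GTF2H5 and XPA), beside 9.00% of 10881 genes called higher and 8.66% called lower in all 4. All 8 belong to excision repair. A gene of the Fanconi or translesion groups was in no case called in the same direction under all 4 treatments, and 4 of the 12 Fanconi and crosslink genes and 2 of the 6 translesion genes were not tested under doxorubicin. In bulk RNA a change in fewer cells and a smaller change in all of them cannot be told apart. The 4 tables hold different libraries, but all compare the same KO and WT cells, and the number of KO clones is not stated. A call repeated in all 4 therefore does not separate the BMAL1 deletion from other differences between the lines.

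Promoters from RefSeq (GRCh38.p14), 300 bases each with 250 before and 50 after the annotated start, were found for 33 of the 34 genes; FANCI was not matched. The canonical E-box CACGTG, the letters BMAL1 and CLOCK bind, was searched on both strands and stood in 4 of the 33 (12.1%), those of ERCC6, GTF2H1, FANCC and REV1, against 7.43% of 27305 promoters of that length. The looser CANNTG, which includes CACGTG, stood in 69.7% of the repair promoters and 68.9% of all. E2F-type letters were taken as TTGGCGC, with the variants TTCCCGC, further TTCGCGC, and lastly TTGCCGC, on either strand, and they stood in 13 of the 33 (39.4%) and in 13.1% of all. Of the 4 genes with CACGTG, none was called in more than 2 of the 4 tables. The promoters of the 5 genes lower in KO cells in every table, and that of ERCC5, the gene with the largest rise in each table among the repair genes tested there, are printed 5′ to 3′ on the gene's strand with E2F-type letters in capitals. None of the 6 holds CACGTG, which says only that these letters are not in this window.
XPA: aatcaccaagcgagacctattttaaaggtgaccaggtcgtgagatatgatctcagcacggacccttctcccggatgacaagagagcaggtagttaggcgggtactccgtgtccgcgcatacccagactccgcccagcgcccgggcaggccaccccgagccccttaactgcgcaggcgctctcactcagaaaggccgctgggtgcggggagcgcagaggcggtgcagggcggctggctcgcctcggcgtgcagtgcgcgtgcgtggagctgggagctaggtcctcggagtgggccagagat
XPC: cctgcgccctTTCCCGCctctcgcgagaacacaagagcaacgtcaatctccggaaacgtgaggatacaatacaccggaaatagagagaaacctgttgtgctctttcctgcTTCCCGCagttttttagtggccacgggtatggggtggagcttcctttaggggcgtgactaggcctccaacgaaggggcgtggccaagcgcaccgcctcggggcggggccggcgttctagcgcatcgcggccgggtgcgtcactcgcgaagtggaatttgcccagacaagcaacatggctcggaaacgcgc
DDB2: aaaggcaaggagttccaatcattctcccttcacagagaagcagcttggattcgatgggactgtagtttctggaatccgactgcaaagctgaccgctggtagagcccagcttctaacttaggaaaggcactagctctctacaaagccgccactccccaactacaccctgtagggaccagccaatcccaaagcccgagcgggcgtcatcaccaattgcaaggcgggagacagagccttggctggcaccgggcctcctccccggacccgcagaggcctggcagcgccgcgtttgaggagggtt
RAD23B: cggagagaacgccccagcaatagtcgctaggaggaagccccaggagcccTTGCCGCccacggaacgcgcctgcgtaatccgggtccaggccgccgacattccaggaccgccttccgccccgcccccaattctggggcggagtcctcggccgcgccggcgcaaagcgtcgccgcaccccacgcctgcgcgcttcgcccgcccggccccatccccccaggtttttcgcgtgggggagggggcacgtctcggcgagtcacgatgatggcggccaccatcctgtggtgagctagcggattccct
GTF2H5: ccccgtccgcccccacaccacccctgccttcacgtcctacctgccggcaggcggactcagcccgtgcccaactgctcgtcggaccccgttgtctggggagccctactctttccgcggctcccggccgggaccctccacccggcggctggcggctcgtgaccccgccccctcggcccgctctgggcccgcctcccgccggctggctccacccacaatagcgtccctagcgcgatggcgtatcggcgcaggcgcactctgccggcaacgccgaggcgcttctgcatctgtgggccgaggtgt
ERCC5: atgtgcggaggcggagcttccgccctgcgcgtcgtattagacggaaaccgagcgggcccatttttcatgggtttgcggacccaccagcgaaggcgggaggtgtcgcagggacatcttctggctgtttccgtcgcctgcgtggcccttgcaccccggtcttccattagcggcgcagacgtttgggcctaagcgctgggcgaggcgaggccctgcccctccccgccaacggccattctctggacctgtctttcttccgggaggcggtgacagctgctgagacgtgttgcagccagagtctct
The capitals in XPC begin at -240 and -140 from the start and that in RAD23B at -201. The windows are chr9:97697291-97697590 (minus strand) for XPA, chr3:14178552-14178851 (minus) for XPC, chr11:47214204-47214503 (plus) for DDB2, chr9:107283029-107283328 (plus) for RAD23B, chr6:158168100-158168399 (plus) for GTF2H5 and chr13:102845782-102846081 (plus) for ERCC5.

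XPA is the scaffold of the preincision complex. KO cells had 7.52, 7.997, 2.56 and 6.96 FPKM of XPA, against 16.3, 12.4, 4.64 and 12.0 FPKM in WT cells. Every KO value lay below its WT partner, and the KO value in control was also below the WT values under cisplatin and tunicamycin. In the authors' deposited tables the log2 ratios were -1.12, -0.63, -0.86 and -0.79, all called (Cuffdiff q from 0.000167 to 0.00161). XPA lies at chr9:97674909-97697357 on the minus strand (ENSG00000136936; GRCh38, GENCODE release 29). The other genes called in all 4 tables lie at chr3:14145147-14178783 (XPC), chr9:107283137-107332194 (RAD23B), chr11:47214465-47239240 (DDB2), chr6:158168350-158199344 (GTF2H5), chr11:61299451-61342596 (DDB1), chr19:45407333-45478828 (ERCC1) and chr13:102807146-102876001 (ERCC5).

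Of the 5 genes of damage recognition, XPC, RAD23B and DDB2 fell and DDB1 rose in all 4 tables. XPC, which binds the distorted helix in global repair, had 4.40, 5.17, 0.840 and 4.51 FPKM in KO cells, against 6.86, 7.66, 1.83 and 6.95 FPKM in WT cells. Its partner RAD23B, which stabilises XPC, was far more abundant, with 72.9, 82.2, 43.6 and 80.7 FPKM in KO cells, against 99.2, 103, 62.7 and 101 FPKM in WT cells. Both fell in KO cells under every treatment, in the authors' deposited tables by log2 ratios between -0.57 and -1.12 for XPC (Cuffdiff q from 0.000167 to 0.0472) and between -0.32 and -0.52 for RAD23B (q from 0.000167 to 0.000213). At q of at most 0.01 XPC is called under cisplatin only, and the antisense gene AC093495.1 shares 23.8% of its exonic bases. CETN2, centrin 2, the third subunit, had 14.1, 16.8, 26.3 and 17.9 FPKM in KO cells, against 23.0, 14.5, 26.1 and 16.9 FPKM in WT cells. It fell in KO cells without drug (log2 -0.71 in the authors' deposited table, Cuffdiff q = 0.000213) and was not called under any drug.

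The ultraviolet-damage sensor is a dimer of DDB1 and DDB2, and its subunits moved in opposite directions. DDB2, the lesion-binding subunit and a p53 target, had 10.5, 8.93, 4.97 and 8.92 FPKM in KO cells, against 16.5, 19.2, 7.25 and 14.6 FPKM in WT cells. DDB1, an adaptor of the CUL4 ubiquitin ligases that is used well beyond repair, had 98.8, 87.4, 114 and 91.4 FPKM in KO cells, against 73.7, 81.9, 93.9 and 77.2 FPKM in WT cells. DDB2 was lower in KO cells under each treatment and furthest under cisplatin, with a log2 ratio of -1.10 (Cuffdiff q = 0.000167) in the authors' deposited table; there DDB1 rose by 0.42 in control, 0.09 under cisplatin, 0.28 under doxorubicin and 0.24 under tunicamycin (Cuffdiff q from 0.000173 to 0.00389). Rescaling every group to the same total leaves DDB1 log2 ratios of 0.41, 0.05, 0.07 and 0.11.

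Transcription coupling rests on ERCC6 (CSB) and ERCC8 (CSA), which act where a polymerase has stalled. ERCC6 had 1.82, 3.67, 0.461 and 3.26 FPKM in KO cells, against 3.51, 5.40, 0.767 and 2.502 FPKM in WT cells, and was not called in any table. ERCC8 had 6.57, 8.98, 6.55 and 9.59 FPKM in KO cells, against 6.43, 5.75, 5.95 and 7.44 FPKM in WT cells, and rose in KO cells under cisplatin (log2 0.64 in the authors' deposited table, Cuffdiff q = 0.000167) without a call in the other 3 tables. Whether the treatments differ was not tested, and a processed pseudogene (GNL3LP1) covers 28.3% of its exonic bases.

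The TFIIH genes were called in both directions. ERCC2 (XPD), the helicase that opens the damaged strand, had 74.5, 57.0, 51.8 and 64.5 FPKM in KO cells, against 51.4, 50.2, 66.0 and 61.6 FPKM in WT cells. ERCC3 (XPB), the translocase, had 22.7, 29.3, 11.3 and 16.1 FPKM in KO cells, against 15.7, 22.5, 14.8 and 13.8 FPKM in WT cells. Both rose in KO cells without drug and under cisplatin, ERCC3 also under tunicamycin, and both fell under doxorubicin, where the authors' deposited table gives log2 ratios of -0.35 for ERCC2 (Cuffdiff q = 0.000186) and -0.38 for ERCC3 (q = 0.00161). GTF2H1 (p62) had 20.8, 28.0, 4.06 and 20.5 FPKM in KO cells, against 22.9, 22.1, 4.84 and 17.4 FPKM in WT cells, and rose in KO cells under cisplatin and tunicamycin. GTF2H3 (p34) had 20.5, 24.6, 19.5 and 26.2 FPKM in KO cells, against 28.6, 24.6, 32.4 and 31.7 FPKM in WT cells, and fell in KO cells in control and under doxorubicin.

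GTF2H5 (TTDA, the small subunit that stabilises TFIIH and is needed for its repair role) had 3.75, 3.79, 3.73 and 2.99 FPKM in KO cells, against 8.98, 4.85, 4.74 and 3.66 FPKM in WT cells. It was called lower in KO cells under all 4 treatments, by log2 ratios of -1.26, -0.36, -0.35 and -0.29 in the authors' deposited tables (Cuffdiff q from 0.000173 to 0.00415). The WT control value stands apart from the other 7 groups, which lie between 2.99 and 4.85 FPKM. WT control is also the group with the highest 5th percentile of FPKM.

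The incision step uses the nucleases ERCC4 (XPF) with ERCC1, and ERCC5 (XPG). ERCC5 had 19.7, 28.7, 7.05 and 25.1 FPKM in KO cells, against 9.91, 10.3, 2.73 and 12.9 FPKM in WT cells, which is 1.99, 2.79, 2.58 and 1.95 times higher. All 4 ratios were called in the authors' deposited tables (Cuffdiff q from 0.000167 to 0.000213). The readthrough gene BIVM-ERCC5 covers 63.2% of the exonic bases of ERCC5 on the same strand, so reads of both may be split between them. ERCC1 had 111, 108, 112 and 107 FPKM in KO cells, against 84.6, 92.4, 77.9 and 86.9 FPKM in WT cells, and was called higher in KO cells in all 4 of the authors' deposited tables, by log2 0.23 to 0.53 (Cuffdiff q from 0.000167 to 0.000213). CD3EAP on the opposite strand shares 28.6% of its exonic bases, and strand use in counting is not stated. ERCC4, its partner, was at 3.52, 4.31, 0.142 and 2.39 FPKM in KO cells, against 3.67, 4.49, 0.229 and 3.52 FPKM in WT cells. It fell in KO cells under tunicamycin (log2 -0.56 in the authors' deposited table, Cuffdiff q = 0.0234) and was not tested under doxorubicin.

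**Figure D2:**
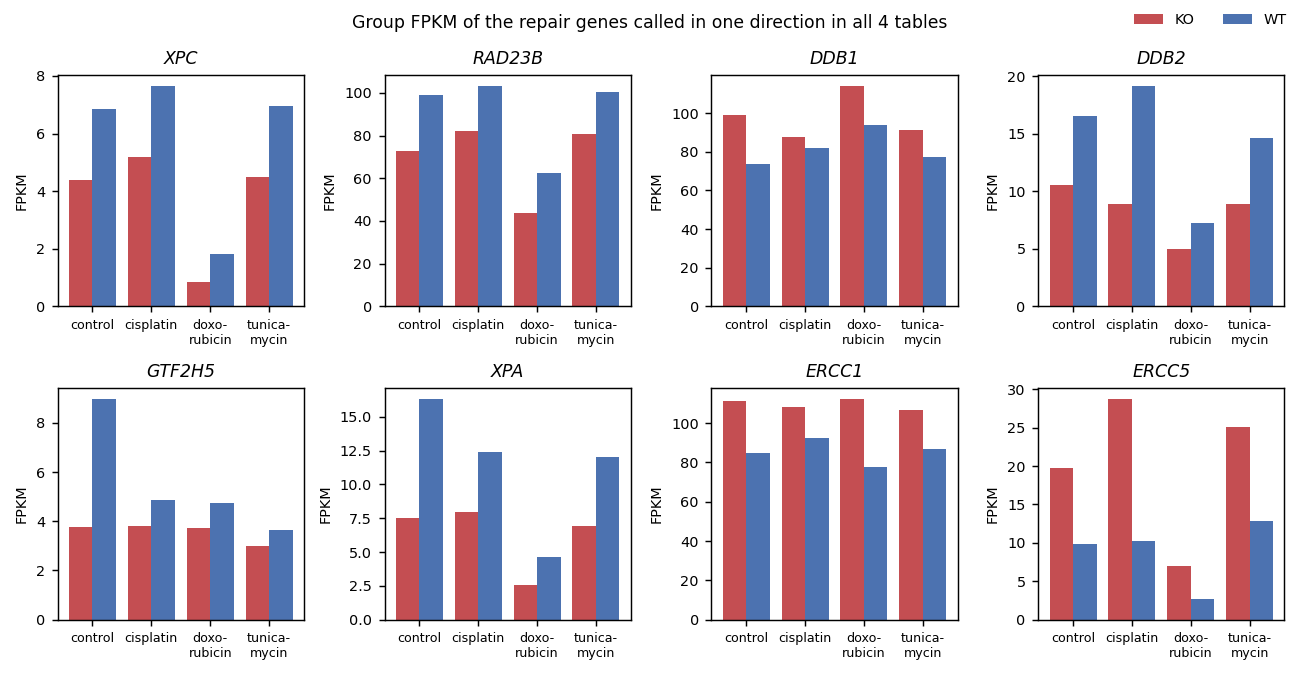
FPKM of the 8 repair genes called in 1 direction in all 4 KO over WT tables, with KO bars (red) left of WT bars (blue) for each treatment (x axis); each bar is the single deposited value of a group, so there is no error bar. XPA, XPC, DDB2, RAD23B and GTF2H5 are lower in KO cells and ERCC5, ERCC1 and DDB1 higher in all 4 pairs.

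The Fanconi core genes showed few calls that recurred. FANCF, an adaptor of the core complex with a single exon, had 1.26, 1.29, 0.0376 and 1.52 FPKM in KO cells, against 0.665, 0.518, 0 and 0.920 FPKM in WT cells; the WT doxorubicin value is listed at 0 and was not tested. It rose in KO cells in the other 3 tables, by log2 0.93, 1.31 and 0.72 in the authors' deposited tables (Cuffdiff q of 0.00463, 0.000167 and 0.000335), at levels near 1 FPKM. FANCC, another core member, fell in KO cells under cisplatin, with 1.98 FPKM in KO and 3.27 FPKM in WT cells, and rose under tunicamycin, with 7.81 FPKM in KO and 6.10 FPKM in WT cells. The ligase FANCL fell in KO cells in control, with 7.91 FPKM in KO and 12.7 FPKM in WT cells. FANCM, the DNA translocase that anchors the complex, fell there too, with 2.58 FPKM in KO and 4.42 FPKM in WT cells. In the authors' deposited tables the Cuffdiff q was 0.0297 and 0.0142 for FANCC, 0.0333 for FANCL and 0.00874 for FANCM. FANCG and FANCE fell in KO cells under doxorubicin and tunicamycin; FANCG had 15.9 and 20.02 FPKM in KO cells, against 20.6 and 28.6 FPKM in WT cells. FANCA and FANCB were not called in any table.

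FANCD2, the substrate of the core ligase, had 13.7, 7.60, 12.3 and 12.3 FPKM in KO cells, against 25.4, 13.9, 16.4 and 15.1 FPKM in WT cells. All 4 KO values were below WT, and the authors' deposited tables call it in control (log2 -0.89, Cuffdiff q = 0.012) and cisplatin (log2 -0.87, q = 0.000767) but not under doxorubicin (q = 0.165) or tunicamycin (q = 0.102). Its partner FANCI had 25.8, 22.8, 29.4 and 20.8 FPKM in KO cells, against 30.6, 27.9, 33.0 and 25.5 FPKM in WT cells, and fell in KO cells under cisplatin (log2 -0.29, Cuffdiff q = 0.0147 in the authors' deposited table) without a call in the other 3 tables. Of the nucleases, the scaffold SLX4 rose in KO cells in control, with 3.34 FPKM in KO and 1.94 FPKM in WT cells, and FAN1 rose under cisplatin, with 8.80 FPKM in KO and 6.60 FPKM in WT cells. MTMR10 on the opposite strand shares 24.3% of the exonic bases of FAN1.

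In the translesion group the E3 ligase RAD18, which ubiquitinates PCNA to bring in these polymerases, had its lowest KO over WT ratio under doxorubicin. KO cells had 15.7, 15.7, 3.09 and 10.6 FPKM of RAD18, against 19.96, 19.7, 7.41 and 16.7 FPKM in WT cells. It fell in KO cells under all 3 drugs, by log2 -0.32, -1.26 and -0.65 in the authors' deposited tables (Cuffdiff q of 0.00105, 0.000186 and 0.000173), and was not called in control (q = 0.13). MAD2L2 (REV7), the accessory subunit of polymerase zeta, had 56.1, 113, 74.5 and 44.5 FPKM in KO cells, against 66.9, 114, 63.9 and 52.0 FPKM in WT cells. It fell in KO cells in control and under tunicamycin and rose under doxorubicin, where the log2 ratio of 0.22 in the authors' deposited table is close in size to the -0.21 by which rescaling every group to the same total moves that table. POLH, polymerase eta, which bypasses cisplatin and ultraviolet lesions, fell in KO cells under tunicamycin, with 4.15 FPKM in KO and 6.49 FPKM in WT cells, and was not called elsewhere. REV1, the catalytic subunit REV3L and POLK were not called in any table, and REV1 and REV3L were not tested under doxorubicin.

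Several of these genes lie where many neighbouring genes differed between the lines. For each repair gene the median log2 ratio of KO over WT was taken over the genes tested in all 4 tables whose midpoint lies within 5 Mb, leaving the gene itself out. Across the repair genes the gene's own ratio and that of its neighbours had a Spearman rho of 0.71, 0.69, 0.41 and 0.41 (n = 34, 34, 33 and 34 genes), given as a description, since genes near each other share neighbours. Under doxorubicin 27 of the 33 were tested, and the rest lay below 1 FPKM in both groups. The rho there is therefore not on the same footing as the others. ERCC5, at chr13:102807146-102876001, had 19 such neighbours, with medians of 0.80, 1.16, 1.09 and 1.29, about as far above 0 as its own 0.99, 1.48, 1.37 and 0.97. For XPA (46 neighbours) they were -0.40, -0.47, -0.42 and -0.33, for DDB2 (39) between -0.36 and -0.53, for RAD23B (24) between -0.35 and -0.77, and for GTF2H5 (24) between -0.54 and -0.63. For DDB1 (154) they were 0.26, 0.17, 0.27 and 0.16, beside its own 0.42, 0.09, 0.28 and 0.24. ERCC1 (154) had neighbours at 0.13, -0.14, 0.12 and -0.01, below its own 0.40, 0.23, 0.53 and 0.29. XPC (60 neighbours) also lay apart from its neighbours: their medians were -0.06, -0.08, -0.07 and -0.10, while its own ratios ran from -0.57 to -1.12. FANCD2 likewise had neighbours near 0 in control (0.00) and cisplatin (-0.10), as did RAD18 in all 4 tables (-0.10 to 0.00). With the repair genes whose neighbours were shifted by 0.3 or more left out, 5, 4, 3 and 6 of the 24, 23, 17 and 24 remaining fell in KO cells and 5, 7, 3 and 5 rose. Over all tested genes 21.1%, 24.2%, 20.7% and 22.1% fell and 22.7%, 25.4%, 24.4% and 27.2% rose. The part of the neighbours' shift in a gene's own ratio was not tested, and the BMAL1 deletion and other differences between the lines cannot be told apart.

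**Figure D3:**
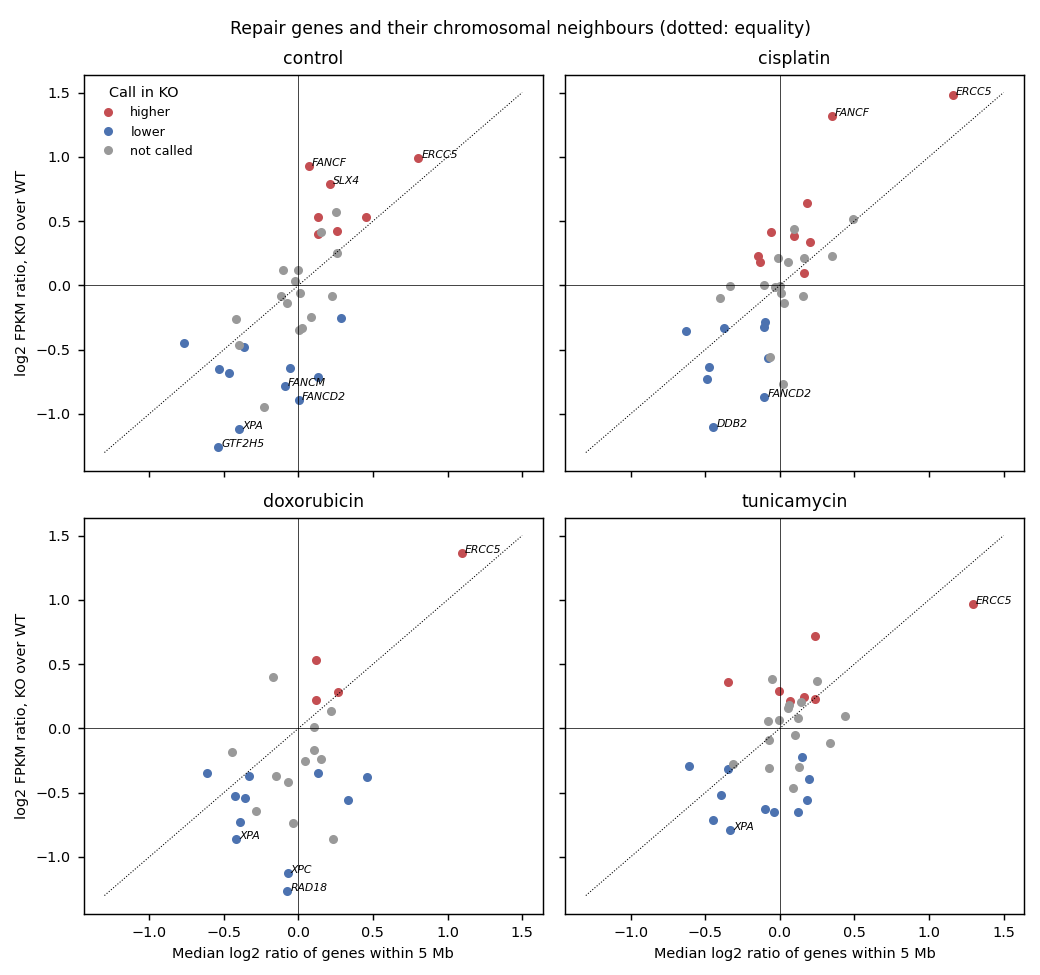
Log2 FPKM ratio of KO over WT for each repair gene tested under that treatment (y axis) against the median log2 ratio of genes within 5 Mb (x axis). There is 1 panel for each treatment, coloured by the call in KO cells, and the dotted line marks equality. ERCC5 sits at the upper right in every panel, and XPC falls below the line with neighbours near 0.

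Other genes of the same pathways were also called in both directions, except under cisplatin among the Fanconi and crosslink genes. Beside their counts, 22.7%, 25.4%, 24.4% and 27.2% of all tested genes rose and 21.1%, 24.2%, 20.7% and 22.1% fell. Of 20 other excision repair genes, 3 rose and 5 fell in KO cells in control, 6 and 4 under cisplatin, 6 and 3 of 19 tested under doxorubicin, and 3 and 6 under tunicamycin. RPA3, the small subunit of the single-strand binding complex, had 19.1, 20.5, 26.2 and 13.9 FPKM in KO cells, against 74.9, 52.7, 63.0 and 44.4 FPKM in WT cells, the neighbours' median lying at -1.42 to -1.48. CUL4A, the cullin that carries DDB1, had 95.0, 98.7, 66.0 and 83.0 FPKM in KO cells, against 49.996, 41.6, 37.0 and 42.1 FPKM in WT cells, with neighbours at 0.74 to 0.92. Both were called in all 4 tables. Of 21 other Fanconi and crosslink genes, 4 rose and 5 fell in control, 10 rose and 0 fell under cisplatin, 1 rose and 1 fell of 17 under doxorubicin, and 4 rose and 3 fell under tunicamycin. MUS81, a crosslink nuclease, had similar KO over WT log2 ratios in all 4 tables, at 0.69, 0.69, 0.69 and 0.62, and was not called under doxorubicin. Under cisplatin it had 18.6 FPKM in KO and 11.5 FPKM in WT cells. Of the 15 other translesion and damage-tolerance genes, 1 rose and 7 fell in control, 1 and 3 under cisplatin, 2 and 4 under doxorubicin, and 2 and 3 under tunicamycin, with 14, 14, 12 and 14 tested. PCNA, the sliding clamp, was called lower in KO cells in all 4 tables (Cuffdiff q of at most 0.000213). It had 140, 182, 59.4 and 70.5 FPKM in KO cells, against 221, 195, 121 and 101 FPKM in WT cells. UBE2N was also called lower in all 4, with neighbours' medians from -0.44 to -0.63.

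Genes of proliferation and of the p53 response give a context for these changes. The shares of all tested genes given above stand beside their counts too. Of 12 genes of G2 and mitosis, 9, 9, 5 and 12 fell in KO cells and 1, 2, 1 and 0 rose; of 16 genes of S-phase replication, 7, 8, 5 and 6 rose and 4, 4, 5 and 6 fell. CENPF, a kinetochore protein, had 63.4, 45.7, 3.07 and 40.1 FPKM in KO cells, against 148, 64.8, 9.17 and 77.8 FPKM in WT cells. Of 12 p53 targets, 3, 4, 4 and 2 fell in KO cells and 1, 2, 0 and 1 rose, with 9 tested under doxorubicin. CDKN1A, the p21 inhibitor of the cell cycle, had 14.1, 62.4, 15.4 and 21.6 FPKM in KO cells, against 22.9, 76.9, 24.0 and 28.8 FPKM in WT cells. Their part in the results for the repair genes was not tested.

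Under cisplatin most repair genes stood close to control. In these comparisons a response is log2((drug FPKM + 1)/(control FPKM + 1)), which understates the change of low genes, and a 2-fold difference is counted where the gene reaches 1 FPKM in either group. In KO cells 2 of 34 were at least 2-fold higher than control, where 5.41% of 13015 genes were, and 1 was lower, where 7.25% were. In WT cells none of 33 was at least 2-fold higher (6.81% of genes were) and 1 was lower (4.63% of genes). MAD2L2 had 113 FPKM under cisplatin and 56.1 FPKM in control in KO cells, and 114 under cisplatin and 66.9 in control in WT cells, responses of 1.003 in KO and 0.76 in WT. FANCC, whose GENCODE record spans 328 kb, was lower under the drug in both genotypes, by -1.29 in KO and -1.17 in WT. FANCD2 was lower in both as well, by -0.77 in KO and -0.83 in WT, and FANCB was higher by 1.02 in KO and 0.55 in WT. FAN1 (0.83 in KO and 0.56 in WT), FANCG (0.66 in KO and 0.50 in WT) and FANCE (0.54 in KO and 0.54 in WT) were higher in both genotypes. The median response of the repair genes was 0.15 in KO and 0.09 in WT cells, against 0.13 in KO and 0.11 in WT over all expressed genes.

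Most repair transcripts had lower FPKM under doxorubicin than in control. In each genotype 14 of 33 were at least 2-fold lower, 42.4%, where 42.0% of 12680 genes in KO and 41.3% of 12663 genes in WT cells were; none was 2-fold higher (4.16% of genes in KO and 4.39% in WT). The median response was -0.94 in KO and -0.93 in WT cells, against -0.74 in KO and -0.72 in WT over all expressed genes. Among the lowest responses were those of FANCE, at -2.84 in KO and -2.61 in WT, POLH, at -2.62 in KO and -1.90 in WT, and REV1, at -2.27 in KO and -2.09 in WT. GTF2H1 followed at -2.11 in KO and -2.03 in WT, ERCC4 at -1.99 in KO and -1.93 in WT, and FANCM at -1.54 in KO and -2.20 in WT. RAD18 had a lower response in KO than in WT cells, at -2.03 in KO and -1.32 in WT. SLX4 stood at -1.97 in KO and -1.45 in WT, but under doxorubicin it had only 0.112 FPKM in KO and 0.0725 FPKM in WT cells. At such levels the pseudocount weighs on the response. Without it, the KO over WT log2 ratio of SLX4 differed from control by -0.17, against -0.92 for RAD18. XPC was lower by -1.55 in KO and -1.48 in WT, XPA by -1.26 in KO and -1.62 in WT, and ERCC5 by -1.37 in KO and -1.55 in WT. Against these, DDB1 (0.21 in KO and 0.35 in WT), FANCI (0.18 in KO and 0.10 in WT), ERCC1 (0.01 in KO and -0.12 in WT), CETN2 (0.86 in KO and 0.18 in WT) and MAD2L2 (0.40 in KO and -0.06 in WT) lay at or near their control FPKM or above it. Repair genes with the higher control FPKM had the higher responses (Spearman rho 0.42 in KO and 0.56 in WT, n = 33), a description that shares the control value on both axes; over all expressed genes it was 0.01 in KO and -0.01 in WT. Each FPKM is a share of its library, and summed FPKM differs between groups, so rescaling to equal totals moves the doxorubicin over control log2 ratios by -0.45 in KO and -0.25 in WT cells. The count of repair genes at least 2-fold lower then becomes 21 in KO and 20 in WT cells, and centring on the median of expressed genes makes it 7 in KO and 6 in WT cells, with 2 higher in each.

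**Figure D4:**
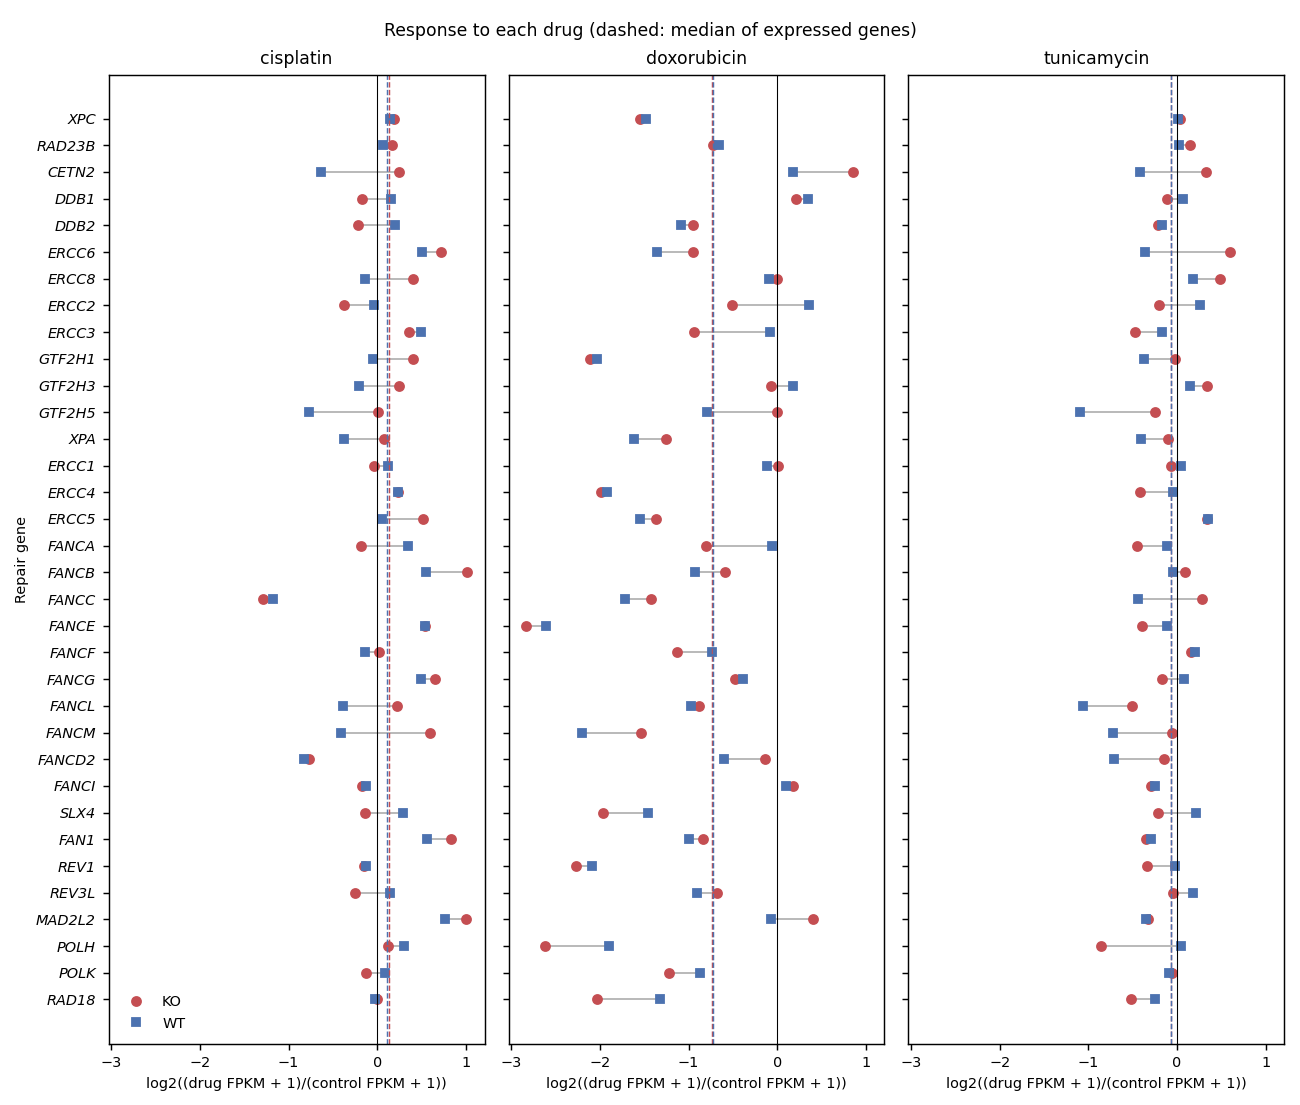
Response to each drug of the 34 repair genes in KO (red circles) and WT cells (blue squares), as log2((drug FPKM + 1)/(control FPKM + 1)) on the x axis; the dashed lines are the medians of expressed genes. Under doxorubicin FANCE, POLH, REV1, GTF2H1 and ERCC4 lie at -1.90 or below in both genotypes, while tunicamycin responses lie between -1.10 and 0.59.

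Under tunicamycin the repair genes lay near control. In KO cells none of 33 passed 2-fold in either direction (3.77% of genes were higher and 2.16% lower), and in WT cells 2 were lower, GTF2H5 (-1.10) and FANCL (-1.06), where 4.64% of genes were higher and 2.33% lower. In KO cells GTF2H5 had a response of -0.25 and FANCL of -0.51. ERCC5 was higher by 0.33 in KO and 0.35 in WT, and ERCC8 by 0.48 in KO and 0.18 in WT.

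Cisplatin responses were lower in longer genes. Span is the full length of the GENCODE gene record, which is not always the unit that starts at the promoter searched above. For FANCC, ERCC5 and ERCC1, among others, that promoter window lies inside the record, so span from it would be shorter. Over all expressed genes the response had a Spearman rho with span of -0.45 in KO and -0.40 in WT cells, and over the repair genes -0.33 in KO (n = 34) and -0.26 in WT cells (n = 33). The 14 repair genes spanning at least 50 kb had a median response of -0.08 in KO and -0.07 in WT cells, and the shorter ones 0.21 in KO (20 genes) and 0.20 in WT cells (19 genes). Under doxorubicin the rho over all expressed genes was -0.21 in KO and -0.15 in WT cells, and over the repair genes -0.14 in KO and -0.16 in WT.

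**Figure D5:**
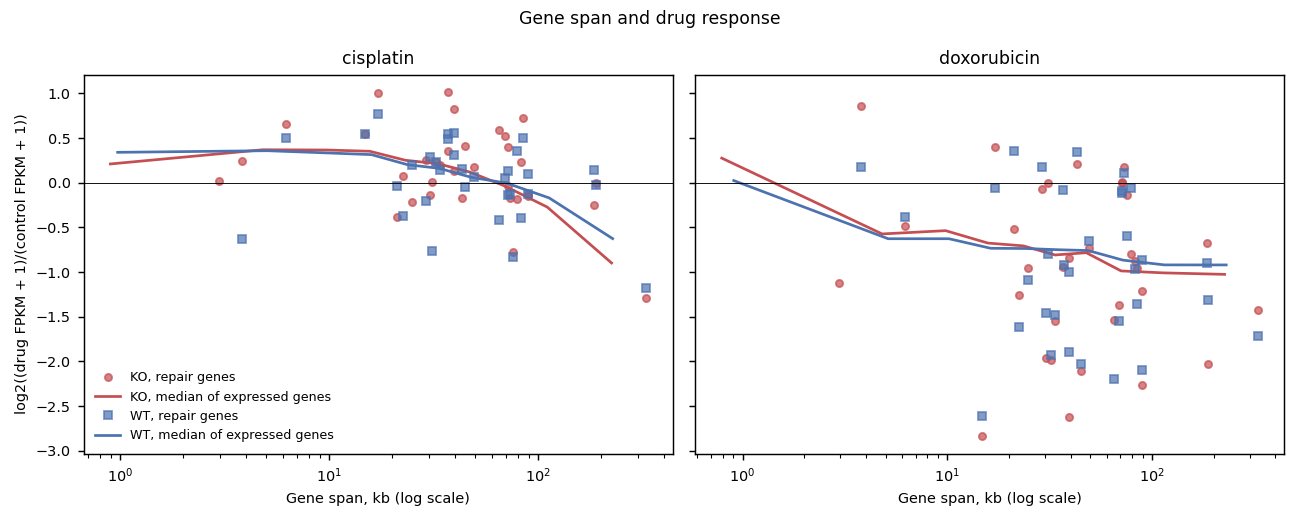
Drug response (y axis, log2) against gene span in kb (x axis, log scale) for the repair genes in KO (red circles) and WT cells (blue squares); the lines join the medians of 10 equal bins of expressed genes. FANCC, at 328 kb the longest of the repair genes by gene record, has the lowest cisplatin response in both genotypes. The next longest lie nearer 0: RAD18 (188 kb) at 0.00 in KO and -0.02 in WT, and REV3L (185 kb) at -0.25 in KO and 0.14 in WT.

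The difference between the KO over WT ratio under a drug and that in control says how far the drug response of KO cells differed from that of WT cells; it has no test, and the control table is shared by all 3. A gene was counted where it reached 1 FPKM in at least 1 group of both tables. Under cisplatin 1 of 34 repair genes differed upward by 2-fold or more, FANCM with 1.30, where 3.40% of 12087 genes did, and none downward, where 6.83% did. Under doxorubicin none of the 25 counted did (3.89% of genes upward and 6.65% downward). The other 9 lay below 1 FPKM in both doxorubicin groups and were not counted. Among these POLH had -1.28, FANCM 1.14 and FANCB 1.82, and FANCF had no finite value because its WT value was 0. Under tunicamycin ERCC6 differed by 1.33 and POLH by -1.07, 1 in each direction of 33, where 2.47% of 12184 genes went upward and 3.64% downward. The median differences among the repair genes, 0.05, 0.04 and -0.05 under the 3 drugs, lay near those of all genes at -0.02, 0.01 and 0.01. GTF2H5 had differences of 0.90, 0.91 and 0.97, which rest on the high WT control value given above. CETN2 likewise differed upward under all 3 drugs, by 0.93, 0.72 and 0.79. RAD18 and ERCC3 had -0.92 and -0.91 under doxorubicin.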

How the data were processed

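RNA of 16 libraries in 8 groups was sequenced. The submitters' processing notes name STAR 2.5.3, Cuffdiff and Cufflinks, Trimmomatic 0.35 for trimming, FastQC 0.11.5 and the build hg38; strand use in counting is not stated. The deposited tables, 1 for each treatment, hold for 60658 genes the authors' FPKM of WT and KO pooled over 2 replicates, the log2 ratio, a test score, a p-value and a Benjamini-Hochberg q-value, so no count of reads, depth, interval or spread between replicates could be given. The smallest deposited p is 5e-05. The deposited log2 ratio matched log2(KO/WT) within 4.64e-05 and the q within 5.25e-07 of its recomputation. The protocol text speaks of fibroblast lines where the sample labels give MDA-MB-231.

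A gene was called at q of at most 0.05. Drug over control was computed as a log2 ratio with a pseudocount of 1 FPKM, for genes at 1 FPKM or more in either group. Genes were placed by Ensembl ID in GENCODE 29 (57047 of 60658 matched, 34 of 34 repair genes). Genes were named where called in at least 3 tables or in both directions, or among the extremes of a drug response; other members appear in their role group. The calling and neighbour steps were checked on simulated data with 200 changed genes. Python 3.11.15, pandas 2.3.3 and scipy 1.17.1 were used. The genes and lists were chosen with earlier results of these data known. Alternatives covered q, fold, pseudocount, centring and rescaling.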

Additional observations from a re-analysis of the deposited data

Results flagged for a closer look

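Among the repair genes, 4 were called in opposite directions under different treatments, and none of these differences was itself tested. ERCC2 had a KO over WT log2 ratio under doxorubicin that differed by -0.88 from that in control and by -0.53 from that under cisplatin. ERCC3 differed by -0.91 under doxorubicin from control and by -0.76 from cisplatin, and the ratio under tunicamycin was 0.60 above that under doxorubicin. FANCC was 1.08 higher under tunicamycin than under cisplatin. MAD2L2 was 0.47 higher under doxorubicin than in control and -0.45 under tunicamycin relative to doxorubicin. The ratios under doxorubicin move by -0.21 when groups are rescaled to equal totals.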

How the results depend on the processing

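Centring, rescaling, pseudocounts and stricter limits reversed the direction of no called result. Centring and rescaling moved the ratio and kept the deposited q, so a call could change there only by a change of sign. Rescaling took the called MAD2L2 ratio under doxorubicin from 0.22 to 0.01. It took the ERCC2 ratio under tunicamycin, which was not called, from 0.07 to -0.07. At q of at most 0.01, 7 genes fell in KO cells in control (11 at 0.05) and 3 were lower in all 4 tables (5 at 0.05). With at least 1.5-fold required, 3 rose and 8 fell in control, 3 rose and 4 fell under cisplatin, and 1 rose and 4 fell under doxorubicin. Under tunicamycin 2 rose and 5 fell, and under all treatments there was 1 higher and 1 lower. Without genes whose neighbours were shifted, an alternative chosen after seeing the data, 5, 4, 3 and 6 fell. Within KO cells the 2 genes at least 2-fold higher under cisplatin than in control became 0 when centred on the median of expressed genes. They became 1 when rescaled to equal totals. At 1.5-fold, cisplatin gave 6 higher and 2 lower in KO and 1 higher and 4 lower in WT; doxorubicin gave 1 higher and 22 lower in KO and 22 lower in WT; tunicamycin gave 1 higher and 1 lower in KO and 4 lower in WT. When centred, doxorubicin gave 2 higher and 7 lower in KO and 2 higher and 6 lower in WT, against 14 lower each, and tunicamycin 1 lower in WT. With a pseudocount of 1, the difference between tunicamycin and control passed 2-fold for 0 genes in each direction. The other 102 summary values stayed within 1.5 times. Of the values for single genes, 213 were unchanged in call and 7 lost it, all at q of at most 0.01: XPC in control, doxorubicin and tunicamycin, DDB2 under doxorubicin, FANCC under cisplatin and tunicamycin, and MAD2L2 in control. No paired analysis was possible because each group holds a single pooled value, and leaving out a replicate could not be run for the same reason. Depth is unknown, so low values such as those under doxorubicin carry no interval.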
